A study of Rattus norvegicus with 6 samples.

Results

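The genes described here are 10 regulators of the cell division cycle measured in the liver of rat pups: the D-type cyclins Ccnd1, Ccnd2 and Ccnd3, the E-type cyclins Ccne1 and Ccne2, the cyclins Ccna2 and Ccnb1, the kinase gene Cdk4, and the CDK inhibitors Cdkn1a and Cdkn1b. They were found by gene symbol in the array annotation, and 16 of the 31042 non-control probe sets were annotated to them. All 10 genes, of 14217 named on the array, passed the limit on brightness. Of their probe sets, 15 did so, and the dimmer one of Ccne2 was left out of the tests. Each gene was represented by its probe set with the highest mean over the 6 arrays.

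The liver came from Sprague-Dawley offspring aged 3 weeks, at weaning, with 3 offspring of mothers on a high fat diet (high fat pups) and 3 of mothers on standard chow (control pups). One Affymetrix array was hybridised per sample with biotin-labelled RNA. The question is whether maternal diet goes with transcript levels in the offspring's liver at that age. The diets' composition, the period of feeding and the litters are not given in the labels, so nothing in the labels shows that the pups had separate dams, and p-values measure only the spread between these samples.

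Progress through the division cycle is driven by kinases that work only when bound to a cyclin. D-type cyclins pair with CDK4 or CDK6 and phosphorylate the retinoblastoma protein, which frees E2F factors to switch on E-type cyclins and the genes of DNA replication. Cyclin E with CDK2 starts DNA synthesis, cyclin A2 carries it through S phase, and cyclin B1 with CDK1 drives mitosis. The inhibitors p21, from Cdkn1a, and p27, from Cdkn1b, bind these complexes. Hepatocytes still divide in the weeks after birth and largely leave the cycle as the liver matures, and cyclin D1 is the member best known for bringing them back into it after liver loss.

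Of the 6 arrays, 2 stood apart in other respects. High fat replicate 3 was the array with low Xist, at 4.45 against 12.46 to 13.31 in the other 5 arrays, and with high Y-linked Eif2s3y, at 11.14 against at most 3.99, both on the log2 scale. The probe set of Uty, another Y-linked gene, did not set it apart in this way, at 10.26 against 10.64 to 11.20 in the other 5 arrays. High fat replicate 1 carried exocrine pancreas transcripts, with Prss1 at 13.08 against 4.10 to 5.30 elsewhere. The hepatocyte genes Alb and Ttr were at 14.46 to 14.81 in every array, so the label of the tissue held. Over all 10372 genes tested, 4 passed an adjusted p under 0.05 in limma, 0.0386% of them.

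RefSeq promoter sequences (assembly GRCr8) were at hand for 6 of the 10 genes, and not for Ccnd1, Ccnd2, Ccne2 or Ccna2. The 2 shown are those of Cdkn1a and Ccnb1, whose levels differed widely between arrays of 1 group. Neither gene had a difference between the diets beyond its spread. Each holds the 250 bases before the annotated start, 5′ to 3′ on the strand of the gene. For Cdkn1a (chr20:7150682-7150931, plus strand) the capitals mark the stretch that matches the binding element of p53, the stress-activated factor known to induce this gene, with at most 1 mismatch over 20 bases. For Ccnb1 (chr2:33655226-33655475, minus strand) the capitals mark CCAAT boxes, the motif bound by NF-Y, which is known to act on promoters of mitotic genes.
Cdkn1a: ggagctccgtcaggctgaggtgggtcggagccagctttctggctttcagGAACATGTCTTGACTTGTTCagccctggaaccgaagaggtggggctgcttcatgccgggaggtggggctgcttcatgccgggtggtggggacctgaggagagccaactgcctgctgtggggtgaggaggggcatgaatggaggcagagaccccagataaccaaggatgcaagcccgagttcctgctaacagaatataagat
Ccnb1: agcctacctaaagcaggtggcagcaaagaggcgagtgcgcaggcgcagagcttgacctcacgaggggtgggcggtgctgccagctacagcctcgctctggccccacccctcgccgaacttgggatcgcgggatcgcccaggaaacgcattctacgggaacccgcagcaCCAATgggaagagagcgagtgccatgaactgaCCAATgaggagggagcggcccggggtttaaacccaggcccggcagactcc
The p53 match ends 181 bases before the annotated start, and 0.0598% of 33469 rat promoters of this length hold such a match; the p53 element reads the same on both strands. CCAAT on either strand was in 34.0% of them. The Ccnb1 promoter held 2 CCAAT boxes, the Cdkn1b promoter 2 and the Ccnd3 promoter 1. E2F sites, searched on both strands as TTTCGCGC, TTTGGCGC, TTTCCCGC or TTTGCCGC, were in none of the 6 promoters and in 1.73% of all. A match describes letters and not a bound site.

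Cyclin D1 and cyclin E2 transcripts were higher in every pup of a high fat dam than in every control pup, by 2.34-fold and 3.39-fold. Neither passed limma's test over all genes. Cyclin D3 was 1.53-fold lower on average with overlapping groups, and the other 7 genes had differences within their spread. None of the 10 members had an adjusted p under 0.05. At an unadjusted p under 0.05 there were 3 of 10 (Ccnd1 and Ccne2 higher, Ccnd3 lower), against 14.0% of all genes (6.55% higher and 7.49% lower). The same 3 also differed by at least 1.5-fold, against 6.69% of all genes. Groups did not overlap for 2 of 10, both higher, against 20.8% of all genes (9.26% higher, 11.6% lower), so the members' share is close to the background. A positive log2 change was found in 6 of 10, against 46.9% of all genes, and the median log2 change was 0.13 against -0.02 over all genes.

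**Figure D1:**
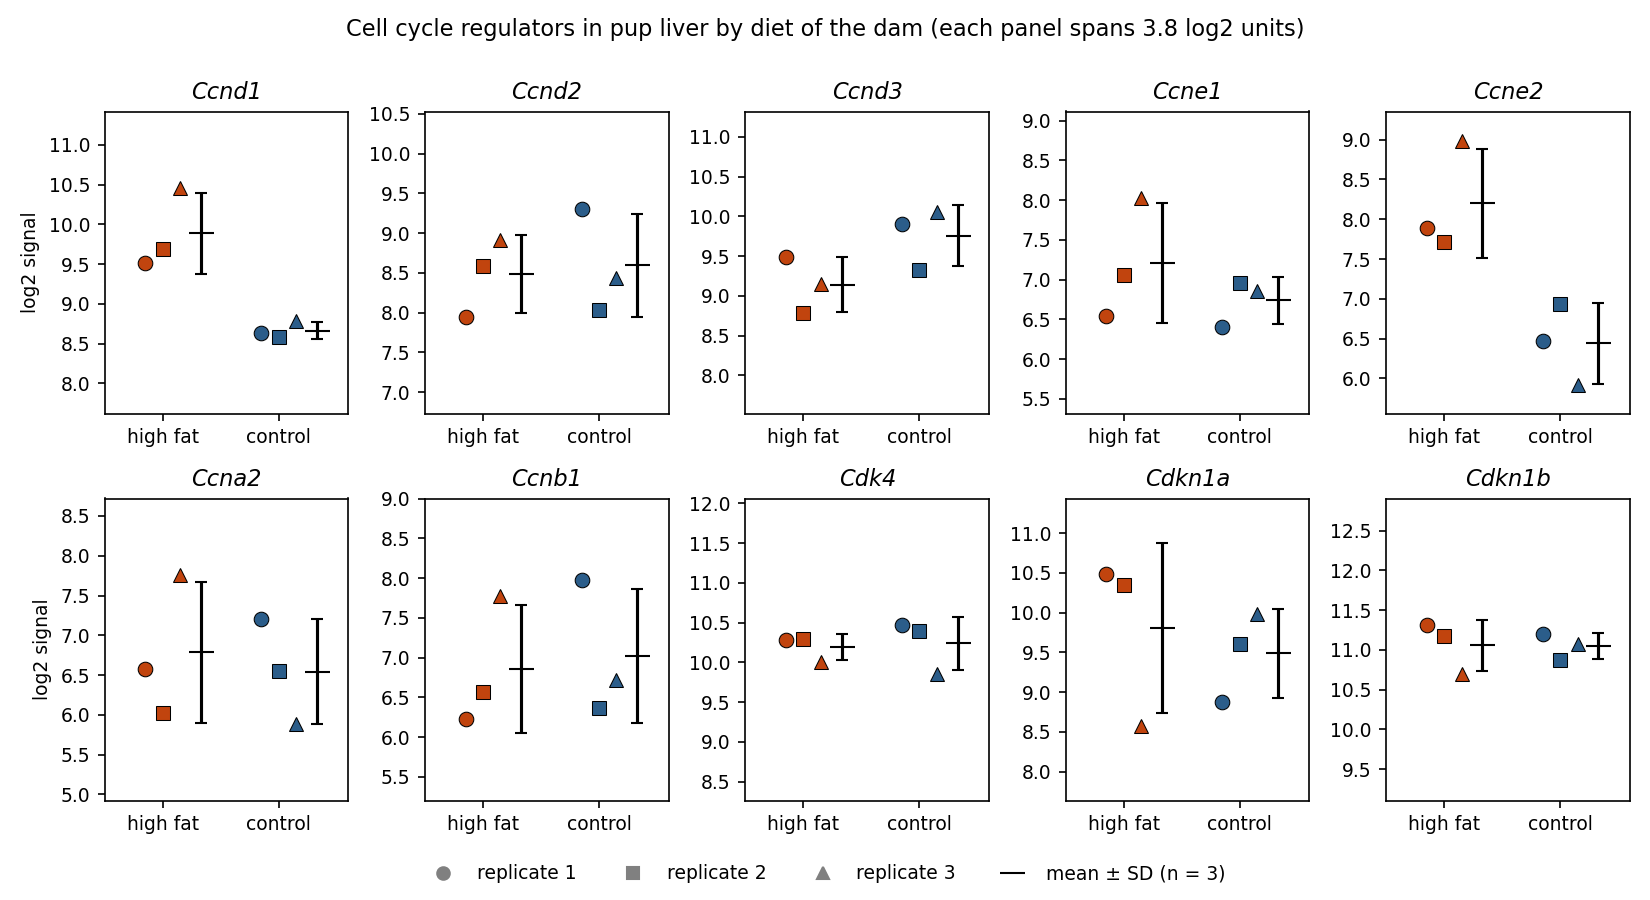
Log2 signal of the probe set that stands for each gene (vertical axis) in high fat and control pups; symbols are single arrays and bars the mean ± SD of 3. Only Ccnd1 and Ccne2 have all high fat arrays above all control arrays, and high fat replicate 3 (triangle) is the highest array for Ccnd1, Ccne1, Ccne2 and Ccna2 and the lowest for Cdkn1a and Cdkn1b.

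Among the D-type cyclins, Ccnd1 was at 9.51, 9.69 and 10.46 in high fat pups, against 8.63, 8.58 and 8.78 in control pups. All high fat arrays lay above the control arrays, which were tightly grouped (SD 0.10, against 0.51 in high fat pups). The log2 change was 1.22 (SE 0.25, 95% confidence interval 0.62 to 1.83, limma unadjusted p = 0.00202, adjusted p = 0.184), which placed Ccnd1 at rank 109 of the 10372 genes by p. Both other Ccnd1 probe sets repeated the pattern. The probe set 1383075_at was at 9.22, 9.55 and 10.05 in high fat pups, against 8.17, 7.65 and 8.30 in control pups (log2 change 1.57, SE 0.27, adjusted p = 0.199 over the 18625 probe sets tested). The probe set 1371150_at was at 8.34, 8.89 and 9.18 in high fat pups, against 7.43, 7.41 and 7.61 in control pups (1.32, SE 0.23, adjusted p = 0.203). Probe sets of 1 gene report on the same RNA and are not replicates of the diet; of all probe sets tested, 0.0322% had an adjusted p under 0.05 and 8.93% lay wholly higher in high fat pups. Leaving out high fat replicate 3 gave a Ccnd1 difference of 0.94, and leaving out high fat replicate 1 gave 1.41.

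Ccnd2, another cyclin that activates CDK4 and CDK6, was at 7.95, 8.59 and 8.91 in high fat pups, against 9.31, 8.03 and 8.44 in control pups. The groups overlapped throughout, with a log2 change of -0.11 (SE 0.38, 95% confidence interval -1.01 to 0.78). Ccnd3 was at 9.49, 8.79 and 9.15 in high fat pups, against 9.90, 9.33 and 10.05 in control pups. High fat replicate 1 lay above control replicate 2, and the log2 change was -0.62 (SE 0.25, 95% confidence interval -1.22 to -0.01, limma unadjusted p = 0.0465, adjusted p = 0.348). Ccnd3 was -0.34 with a covariate for RNA integrity, the mean 3' minus 5' signal difference of control transcripts. Hexokinase varied most in this mean, from -3.11 in control replicate 2 to 3.788 in control replicate 1. Beta-actin ran only from 3.185 to 4.497 and GAPDH from 0.651 to 1.631, both highest in control replicate 3. Cdk4, the kinase partner of these cyclins, was at 10.28, 10.29 and 10.01 in high fat pups, against 10.47, 10.39 and 9.85 in control pups. Its log2 change of -0.05 (SE 0.20) had the 95% confidence interval -0.52 to 0.43.

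The E-type cyclins gave values of different size. Ccne2 was at 7.89, 7.72 and 8.99 in high fat pups, against 6.47, 6.93 and 5.92 in control pups. The lowest high fat array lay 0.79 log2 units above the highest control array. The log2 change was 1.76 (SE 0.39, 95% confidence interval 0.83 to 2.70, limma unadjusted p = 0.00297, adjusted p = 0.186), and it was 1.37 without high fat replicate 3. Leaving out high fat replicate 1 instead gave 1.92. The dimmer Ccne2 probe set, under the brightness limit of 5.83, was at 5.93, 5.29 and 5.60 in high fat pups, against 5.26, 3.41 and 5.28 in control pups. Its groups were apart by only 0.01 log2 units. Ccne1 was at 6.54, 7.06 and 8.03 in high fat pups, against 6.40, 6.96 and 6.86 in control pups. The log2 change of 0.47 (SE 0.38) moved with single arrays. Leaving out high fat replicate 3 gave 0.06, and leaving out control replicate 1 gave 0.30. When high fat replicate 1 was dropped it was 0.81 (SE 0.33, limma unadjusted p = 0.0505, adjusted p = 0.397). The difference between the changes of Ccne1 and Ccne2 was not tested.

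**Figure D2:**
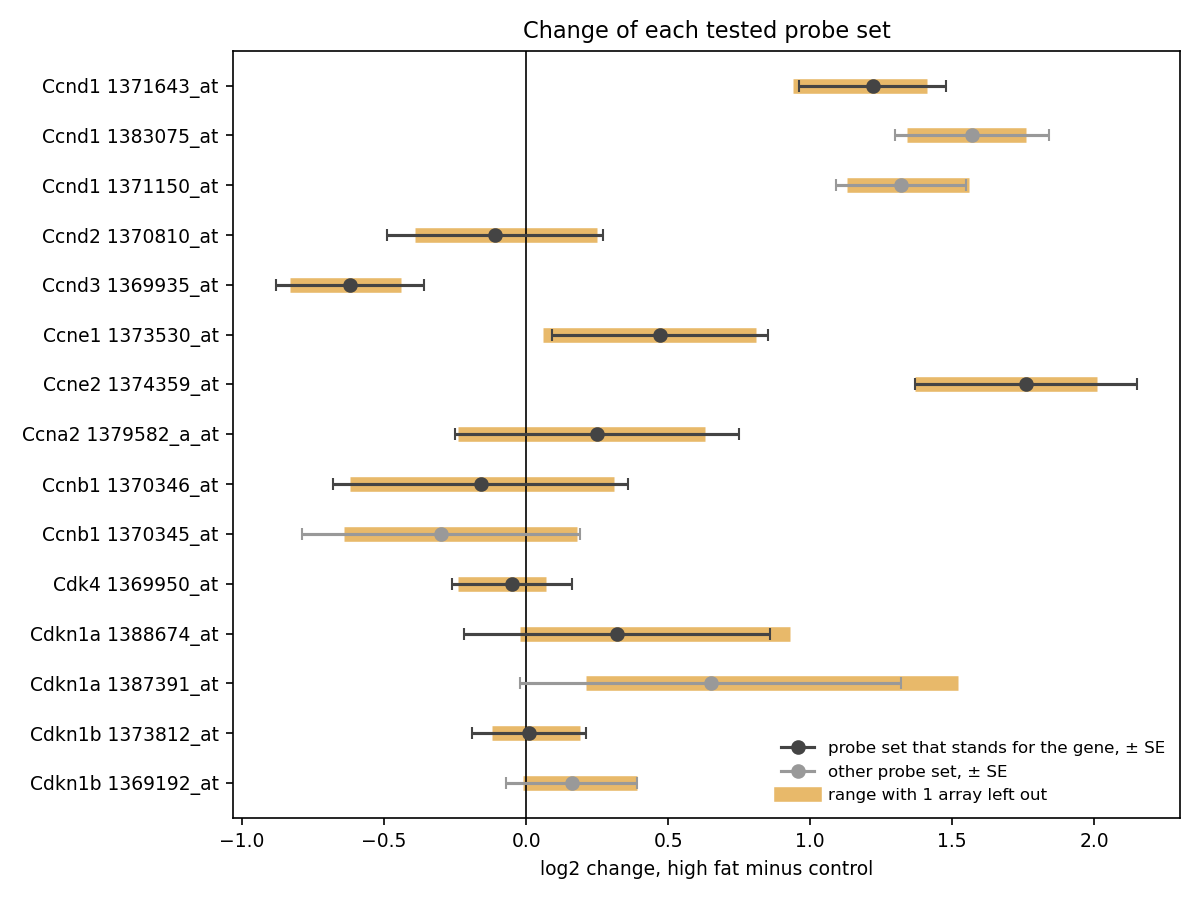
Log2 change, high fat minus control (horizontal axis), of the 15 tested probe sets, with bars for the standard error and bands for the range when each of the 6 arrays was left out in turn. The 3 Ccnd1 probe sets and the tested Ccne2 probe set stay well above 0, at 0.94 or more, while the bands of Ccnd2, Ccna2, Ccnb1, Cdk4, Cdkn1b and the brighter Cdkn1a probe set cross 0.

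The cyclins of S phase and mitosis varied more between pups of 1 group than between diets. Ccna2 was at 6.58, 6.02 and 7.76 in high fat pups, against 7.20, 6.55 and 5.88 in control pups, a log2 change of 0.25 (SE 0.50). It was -0.24 without high fat replicate 3, the highest array. Ccnb1 was at 6.23, 6.57 and 7.77 in high fat pups, against 7.97, 6.36 and 6.72 in control pups, a log2 change of -0.16 (SE 0.53). Leaving out high fat replicate 3 gave -0.62, and leaving out high fat replicate 1 gave 0.16. Its second probe set, at 5.37, 6.07 and 6.75 in high fat pups, against 7.32, 5.79 and 5.96 in control pups, had the same highest and lowest arrays. High fat replicate 3 and control replicate 1 held the 2 highest values for both Ccna2 and Ccnb1. The 95% confidence intervals, -0.94 to 1.44 for Ccna2 and -1.41 to 1.09 for Ccnb1, are too wide to separate no difference from a 2-fold one.

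The inhibitor Cdkn1a split the high fat pups. It was at 10.49, 10.35 and 8.58 in high fat pups, against 8.88, 9.60 and 9.98 in control pups. High fat replicates 1 and 2 were the 2 highest arrays and high fat replicate 3 was the lowest of all 6. The second probe set, 1387391_at, showed this more sharply, at 9.38, 9.38 and 6.76 in high fat pups, against 7.99, 7.94 and 7.66 in control pups. Its log2 change was 0.65 over all arrays (SE 0.67, limma adjusted p = 0.731) and 1.52 without high fat replicate 3 (SE 0.19, unadjusted p = 0.000152, adjusted p = 0.218). It was 0.21 when either high fat replicate 1 or high fat replicate 2 was left out. The brighter probe set was at 0.32 over all arrays (SE 0.54, adjusted p = 0.829) and at 0.93 without high fat replicate 3 (SE 0.33, adjusted p = 0.426); leaving out high fat replicate 1 gave -0.02. The lowest array, high fat replicate 3, also differed in Xist and Eif2s3y, and the part of this in the Cdkn1a value was not tested.

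Cdkn1b, whose product p27 holds resting cells out of the cycle, was at 11.31, 11.17 and 10.70 in high fat pups, against 11.20, 10.88 and 11.08 in control pups. The means differed by 0.01 log2 units (SE 0.20, 95% confidence interval -0.45 to 0.47). Its dimmer probe set gave 0.16 (SE 0.23). High fat replicate 3 was again the lowest array of the brighter probe set, but not of the dimmer one, where control replicate 3 was lowest.

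**Figure D3:**
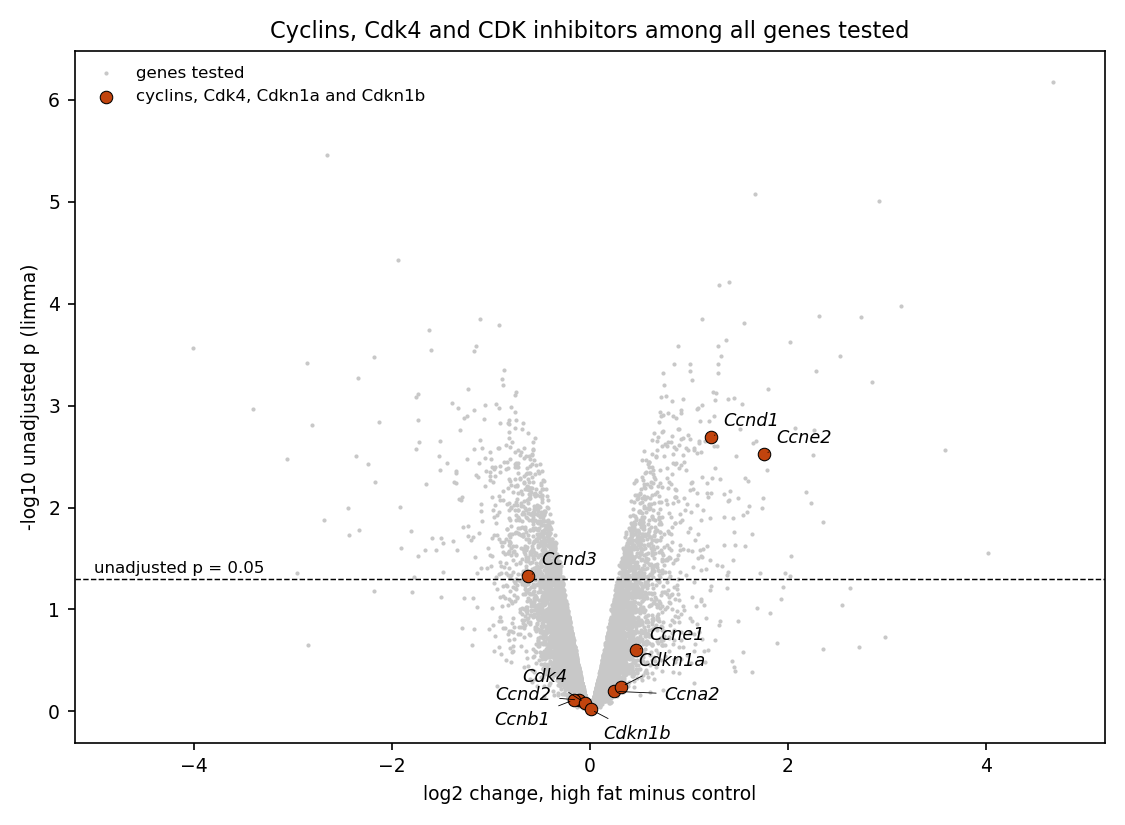
Log2 change, high fat minus control (horizontal axis), against the -log10 unadjusted limma p (vertical axis) of the 10372 genes tested, with the 10 members marked; the dashed line is at an unadjusted p of 0.05. Ccnd1, Ccne2 and Ccnd3 lie above the line, and 7 members lie below it.

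Across the 6 arrays the members showed a few patterns, given here as a description. Ccnd1 and Ccne2 had a Pearson r of 0.92 (Spearman rho = 0.71). Both were wholly higher in high fat pups, so this value holds the difference between the groups. In control pups alone their order was opposite: replicate 2 was lowest for Ccnd1 and highest for Ccne2, and replicate 3 the reverse. Ccnd1 ran only from 8.58 to 8.78 there, so this order says little. In high fat pups replicate 3 was highest for both, at 10.46 and 8.99. Ccnd2 and Ccnb1 followed each other (r = 0.94, rho = 0.94). Cdkn1a ran opposite to Ccnb1 (r = -0.89, rho = -0.77) and to Ccna2 (r = -0.85, rho = -0.60). Cdkn1b ran opposite to Ccne1 (r = -0.86, rho = -0.77). With 6 arrays and 45 pairs, single arrays such as high fat replicate 3 weigh heavily in these values. Of all genes tested, the pattern most like that of Ccne2 was that of Ifi27l2b (r = 0.992), followed by Mcm7 (r = 0.991), a subunit of the replicative helicase. Those most like Ccna2 were Gpr19 (r = 0.989) and Mcm4 (r = 0.988), and that most like Ccnb1 was the histone variant gene H2az1 (r = 0.975). For Ccnd1 it was Rictor (r = 0.999), whose log2 change was 0.35, and for Cdkn1a it was Mau2 (r = 0.983). Such values are the top of 10371 comparisons over 6 arrays. For Ccnd1 and Ccne2 they also hold the difference between the groups.

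**Figure D4:**
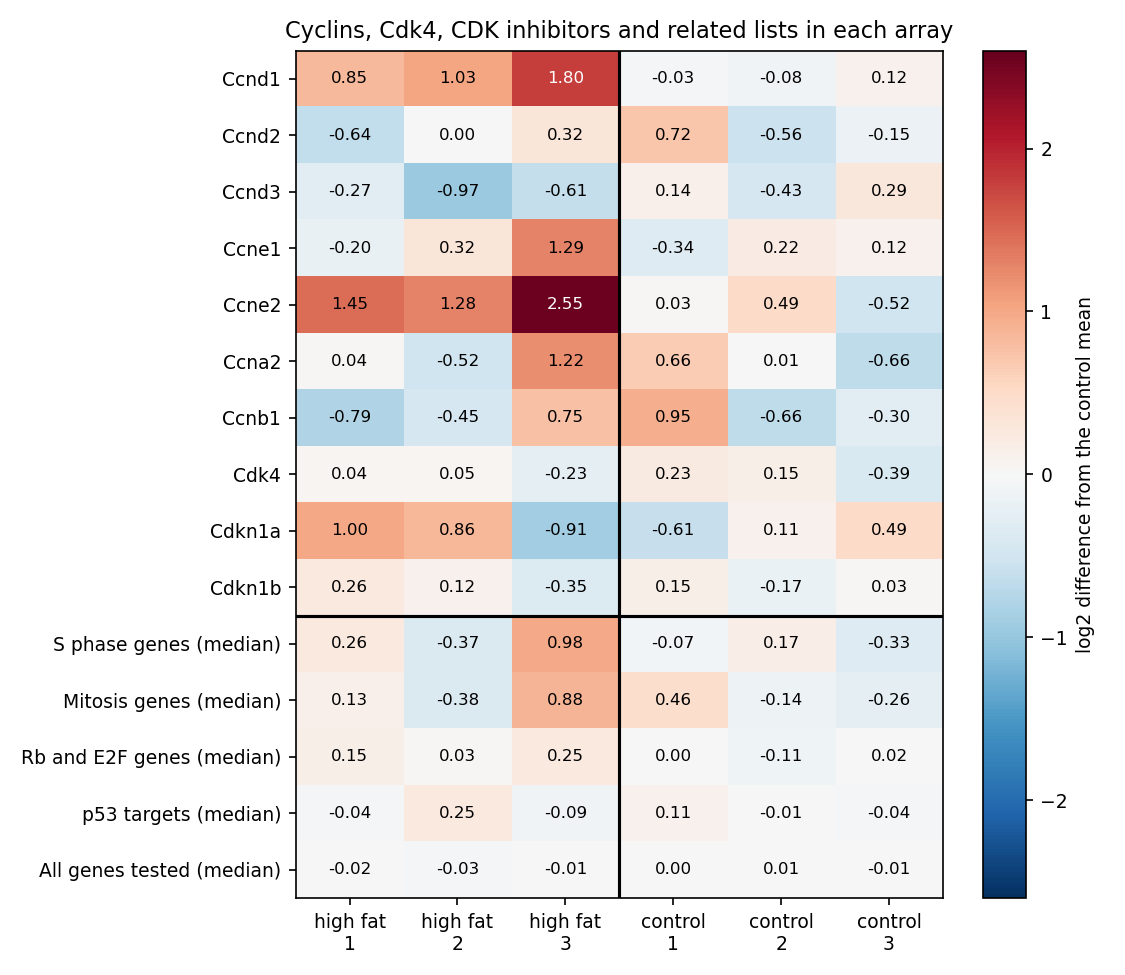
Log2 difference of each array (columns) from the control mean, for the 10 members and for the median of 4 related lists and of all genes tested (rows). High fat replicate 3 is highest in the S phase and mitosis medians, at 0.98 and 0.88, and in Ccne2, at 2.55, while Cdkn1a is at -0.91 there and at 1.00 and 0.86 in the other high fat arrays.

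No gene of the related lists passed the adjusted test either. Of 12 measured Rb and E2F genes, 4 lay wholly higher in high fat pups and none wholly lower, against 9.26% and 11.6% of all genes, and 8 of 12 had a positive log2 change. The median was 0.20. It ranged from 0.07 to 0.24 with each array left out in turn, with the value 0.07 without high fat replicate 3 and without control replicate 2, and 0.11 without control replicate 3. E2f1, which activates E-type cyclin and replication genes, was at 7.13, 6.31 and 7.69 in high fat pups, against 6.24, 5.63 and 5.61 in control pups (log2 change 1.22, SE 0.36, limma adjusted p = 0.253). E2f8, a repressor that is itself an E2F target, was at 5.85, 6.43 and 7.43 in high fat pups, against 5.17, 5.75 and 5.47 in control pups (1.11, SE 0.39). All control arrays of E2f8 lay under the brightness limit of 5.83, so it passed only through its high fat arrays. Control replicates 2 and 3 of E2f1 lay under it too. The count of genes wholly higher includes both. E2f5 was at 0.52 (SE 0.18).

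S phase genes had a positive log2 change in 13 of 16 tested and a median of 0.34. At an unadjusted limma p under 0.05 there were 2 of 16, both higher. Of all genes, 14.0% were under it in either direction and 6.55% were under it and higher. Groups did not overlap for 3 of 16, all higher, against 9.26% of all genes wholly higher and 11.6% wholly lower. Mcm7 was at 0.75 (SE 0.17, limma adjusted p = 0.186), the clamp gene Pcna at 0.56 (SE 0.15, adjusted p = 0.224) and Mcm2 at 0.47 (SE 0.24, adjusted p = 0.452). Of 21 mitosis genes on the array, only 13 passed the brightness limit. These were positive in 10 of 13, with a median of 0.27, and 46.9% of all genes were positive. Groups lay wholly higher for 2 of them and wholly lower for 1. Cenpf, a kinetochore gene, was at 0.78 (SE 0.21) and Mki67, the proliferation marker Ki-67, at 0.69 (SE 0.35), while the mitotic kinase gene Aurka was at -0.75 (SE 0.27), all with adjusted p over the limit. Without high fat replicate 3 the S phase median was 0.07 and the mitosis median -0.10, and without high fat replicate 2 they were 0.64 and 0.63. The mitosis median was 0.51 without control replicate 1, 0.17 without control replicate 2 and 0.04 without control replicate 3. With high fat replicates 1 and 3 left out together they were -0.37 and -0.39, a value that rests on 1 high fat array.

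The enzymes that set CDK activity differed gene by gene. Wee1, the kinase that inhibits CDK1, was at 8.41, 8.70 and 8.44 in high fat pups, against 7.33, 7.61 and 7.80 in control pups (0.94, SE 0.17, limma unadjusted p = 0.000865, adjusted p = 0.166). Its groups did not overlap. Of the 11 tested genes of its list, 1 lay wholly higher and 1 wholly lower, against 9.26% and 11.6% of all genes. Fzr1, an activator of the anaphase-promoting complex, was at -0.49 (SE 0.15), and Fbxo5, an inhibitor of that complex, at 0.63 (SE 0.28). In that list 7 of 11 tested genes were positive and the median was 0.18, and it was 0.09 without high fat replicate 3; leaving out high fat replicate 1 gave 0.30.

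Of the other cyclins and CDKs, 8 of 11 tested were positive with a median of 0.06, which took either sign with 1 array left out (-0.09 without control replicate 3 to 0.16 without control replicate 1). Ccng2, an atypical cyclin linked to cell cycle arrest, was at 9.68, 9.26 and 9.47 in high fat pups, against 8.70, 8.94 and 7.72 in control pups (1.02, SE 0.32, limma adjusted p = 0.270). Ccnc was at -0.35 (SE 0.18) and Ccng1, a p53 target, at 0.21 (SE 0.24). Among the other CDK inhibitors, 4 were tested and 2 were positive. The imprinted Cdkn1c, which encodes p57, was at 7.92, 8.39 and 8.01 in high fat pups, against 8.54, 8.98 and 9.13 in control pups (-0.78, SE 0.21, limma adjusted p = 0.218). Its groups did not overlap, which held for 1 of these 4 genes, against 20.8% of all genes (11.6% wholly lower). Cdkn3 was at -0.49 (SE 0.34) and Cdkn2c at 0.29 (SE 0.22).

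p53 targets, set beside Cdkn1a, showed no common direction: 8 of 15 tested were positive and the median was 0.02 (-0.05 to 0.16 with each array left out in turn). Sesn1, a stress-induced sestrin, was at 10.01, 9.97 and 9.09 in high fat pups, against 8.78, 9.43 and 8.45 in control pups (0.80, SE 0.34, limma adjusted p = 0.353). High fat replicate 3 was the lowest high fat array for Sesn1 too, though above 2 of the control arrays. The apoptosis gene Bbc3 was at 0.33 (SE 0.14) and Ddit4 at -0.42 (SE 0.19). The list's medians per array were -0.04, 0.25 and -0.09 in high fat pups, against 0.11, -0.01 and -0.04 in control pups. High fat replicate 3 was lowest for this median, but its -0.09 was close to the -0.04 of high fat replicate 1 and control replicate 3. It was also the lowest array for Cdkn1a. High fat replicate 1, the highest for Cdkn1a, was not high in the median. Whether the median and Cdkn1a go together was not tested.

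Genes linked to signals that act on cyclin D1 went both ways, with 5 of 13 tested positive and a median of -0.28. The list mixes Wnt target genes with receptors and other factors, so its count and median do not give the direction of these signals. The growth factor receptor gene Egfr was at 12.57, 12.91 and 12.77 in high fat pups, against 12.37, 11.73 and 11.46 in control pups (0.89, SE 0.25, limma adjusted p = 0.228). Tbx3, a Wnt target of the liver, was at -0.65 (SE 0.25) and Stat3 at -0.49 (SE 0.21).

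Markers of other cells that could divide in the liver of a pup were read beside these values. In tissue RNA, fewer cells of a type and less RNA per cell cannot be told apart. Of 15 erythroid markers, 8 were tested, 7 of them with a negative log2 change, and their summed linear signal was 30281 to 40703 in high fat pups, against 39410 to 49996 in control pups. Of 12 neutrophil and myeloid markers, 5 were tested, and their summed signal was 944, 627 and 1412 in high fat pups, against 1641, 1051 and 617 in control pups. The highest sums of that list were in high fat replicate 3 and control replicate 1, which were also the highest arrays for Ccna2 and Ccnb1. S100a8 and S100a9 had the same highest arrays, and Lcn2 was highest in control replicate 1, at 9.38. Defa5 and Np4 were lowest in control replicate 1, at 5.37 and 6.2, so the markers did not share a pattern. Of 14 lymphocyte markers 6 were tested, with a summed signal of 682 to 834 in high fat pups, against 691 to 940 in control pups. All 11 tested endothelial markers had a negative log2 change, with a summed signal of 12586 to 16565 in high fat pups, against 21575 to 25272 in control pups. Kupffer cell and macrophage markers were negative in 7 of 10 tested. Their summed signal was 17397 to 23171 in high fat pups, against 21559 to 25112 in control pups. Stellate cell and fibroblast markers were negative in 4 of 10 tested (sums 16055 to 19573 against 16498 to 17897). Cholangiocyte markers were negative in 1 of 4 tested, though their sums were lower (4266 to 4917 against 6238 to 7442). No marker of these lists that the array annotation names was at 0 on any array. The part of these cells in the values of the cyclins was not tested.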

How the data were processed

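Log2 signals of 31099 Affymetrix probe sets in 6 arrays were used as the authors deposited them. The scale was read from the values: undoing base 2 gives each array the same 2% trimmed mean, 500.2. How probes were summarized is not given in the sources here. The arrays were quantile-normalized over the 31042 non-control probe sets, since quartiles differed by up to 0.22. Of these, 20826 had 1 gene in the platform annotation, 436 several and 9780 none; symbols were updated through RefSeq (20758 matched). The lowest 40% by mean, below 5.83, were left out. The diets were compared by limma (version 3.58.1, R 4.3.3, 2-sided), adjusted by Benjamini-Hochberg over 10372 genes or 18625 probe sets. The procedure was run on simulated data with independent errors and no array that stood apart, so that run does not cover arrays like the ones described above. Figures used matplotlib 3.10.9.

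The members and lists were chosen with earlier results of these data known. The named genes were all members, the 3 genes of each related list with the smallest p, and the genes whose pattern was most like a member's. When arrays were left out, the probe sets and the filter stayed as they were. The depth is unknown for arrays, and their number limits the precision. The labels do not say what the replicate numbers mean, and they were not used as a pairing in the main comparison.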

Additional observations from a re-analysis of the deposited data

How the results depend on the processing

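No member passed an adjusted p under 0.05 in any of the 16 alternatives (smallest adjusted p 0.0985, for Ccnd1 with an intensity trend). Counting members by an unadjusted p under 0.05 gave 3, with 1.5-fold also 3, and by groups without overlap 2. The first count was 2 with no filter, the filter at the lowest 20%, array weights or the covariate for RNA integrity, and without high fat replicate 2, control replicate 1 or control replicate 3. In these, and without high fat replicate 3, Ccnd3 had an unadjusted limma p of 0.0613 to 0.165. Ccnd1, Ccnd3, Ccne1 and Ccne2 kept their sign in every alternative; the other 6, none of them past the test, did not. With the covariate for RNA integrity, in which hexokinase varied most, Ccnd2 was at 0.18 and Ccnb1 at 0.28 (0.06 on its second probe set). With array weights Ccnb1 was at 0.04 and Cdkn1b at -0.03. With high fat replicates 1 and 3 left out together, Ccna2 was at -0.52 and Cdk4 at 0.05. With each array left out in turn, the log2 change ranged from -0.39 to 0.25 for Ccnd2, -0.24 to 0.63 for Ccna2, -0.62 to 0.31 for Ccnb1 (-0.64 to 0.18 on its second probe set), -0.24 to 0.07 for Cdk4, -0.02 to 0.93 for Cdkn1a and -0.12 to 0.19 for Cdkn1b (-0.01 to 0.39 on its dimmer probe set). The number of members with a positive change then ranged from 5 to 9. The cause of these shifts was not tested.

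Over all genes, 4 were called, against 1 with no filter and 1 with a filter at the lowest 20%, 8 with an intensity trend, 0 with the covariate for RNA integrity (limma, 951 at an unadjusted p under 0.05), and 0 to 4 with 1 array left out, the 0 without control replicate 1 or without control replicate 3. With the replicate number as a block, limma called 0 genes (1102 at an unadjusted p under 0.05), and Ccnd1 had an adjusted p of 0.301. The correlations of same-numbered deviations from the group means were -0.13, -0.13 and -0.14, against 0.04 to 0.08 for the other pairs. Deviations from a mean of 3 arrays are tied to each other, so these values cannot show whether the numbers pair the samples. With 3 arrays a group, the confidence intervals span over 2 log2 units for Ccna2, Ccnb1 and Cdkn1a.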
